A study of Mus musculus with 12 samples.

Results

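Islets of mice lacking the clock gene Bmal1 in beta cells were compared with control islets 4 wk after the beta-cell toxin streptozotocin (STZ), across all genes. The comparison uses 4 of the series' 12 RNA sequencing libraries, chosen by the genotype, treatment and time in their labels. The 2 control libraries came from Bmal1fl/fl mice, which carry the floxed allele and no Cre. The 2 knockout libraries came from Bmal1fl/flRIPCreERT/+ mice, in which the rat insulin promoter (RIP) drives a Cre recombinase fused to an oestrogen receptor domain (CreERT). Both groups carried floxed Bmal1 and both received a submaximal STZ dose. Neither the dose in numbers, the age of the mice nor the time of Cre induction was stated. The time of day of collection was not among the sample details used here, so it could not be compared between groups. The other 8 libraries, taken 24 h after STZ or 24 h after citrate buffer (vehicle) in both genotypes with 2 libraries each, serve below as comparison. No vehicle library at 4 wk was used here, and control mice carried no CreERT, so loss of Bmal1 and the presence of CreERT cannot be told apart. The libraries of a group are called A and B. Whether A and B were different mice is not stated, so the A-to-B spread may be technical. The p-values of the main fit cover that spread alone. They take it pooled over all 12 libraries, not from the 4 libraries at 4 wk only.

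BMAL1, whose gene symbol in the files is Arntl, pairs with CLOCK or NPAS2 and binds E-box sequences to switch on Per, Cry, Rev-erb and Dec genes and the PAR-domain factors Dbp, Tef and Hlf. PER and CRY proteins then block this activator, and REV-ERB and ROR proteins compete for the RORE sequences of Arntl itself, which closes the daily loop. In beta cells the same clock is known to time insulin secretion and to support antioxidant defence. STZ is a glucose analogue that enters beta cells through GLUT2, the product of Slc2a2, and alkylates their DNA.

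Total estimated counts at 4 wk were 111271898 and 127207523 in control libraries A and B and 106433964 and 126637768 in knockout libraries A and B, and the 10 most abundant genes took 24.6 to 29.9% of them. Values are CPM (counts scaled to a common library size), and changes are log2 knockout over control. Of 24421 genes, 17411 passed the filter on low counts. The labels call the samples islets, mostly beta cells. Both insulin genes stood between 10370 and 84730 CPM in each of the 4 libraries, whereas the acinar list, genes of the enzyme-secreting exocrine pancreas, took 14.1 and 15.7% of counts in control and 16.5 and 19.7% in knockout.

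The target of the knockout was checked before other genes. Arntl (mm10 chr7:113207465-113314126) was at 20.6 and 20.4 CPM in control and 11.3 and 11.6 CPM in knockout. It was thus lower in both knockout libraries (log2 -0.84, SE 0.11, adjusted p = 0.000548). Under scaling to genes shared by all islet endocrine cells (pan-endocrine scaling, described below) its log2 was -0.05 and its adjusted p 0.86. With only the 4 libraries at 4 wk in the fit the adjusted p was 0.0592 (log2 -0.89). Exon 8 of Arntl, from 113284999 to 113285156 on chromosome 7 in its transcript of 20 exons, had a depth relative to the transcript mean of 1.57 and 1.56 in control and 1.01 and 0.691 in knockout. The ratio of the group means, 0.545, ranked 1 of 20 exons from the lowest. In the other conditions this relative depth ran from 1.69 to 1.99 in 4 control libraries and from 0.627 to 1.37 in 4 knockout libraries, so knockout stayed below control. Esr1, the oestrogen receptor gene whose sequence CreERT fusions share, was at 0.978 and 0.706 CPM in control and 118 and 130 CPM in knockout (log2 7.21, adjusted p = 4.82e-07). Reads of the transgene and of the endogenous Esr1 gene cannot be told apart in these counts.

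The Arntl promoter is shown because REV-ERB proteins, whose genes are described next, are known to act on it. The 300 bases span 250 before to 50 after a RefSeq start (GRCm38.p6, the table's build; 1 of 2 starts listed for Arntl), and capitals mark 2 matches to AANTAGGT, the core of a RORE, searched on both strands. This motif was found in 2.3% of all 32851 promoters of that length.
Arntl (chr7:113207261-113207560, plus strand): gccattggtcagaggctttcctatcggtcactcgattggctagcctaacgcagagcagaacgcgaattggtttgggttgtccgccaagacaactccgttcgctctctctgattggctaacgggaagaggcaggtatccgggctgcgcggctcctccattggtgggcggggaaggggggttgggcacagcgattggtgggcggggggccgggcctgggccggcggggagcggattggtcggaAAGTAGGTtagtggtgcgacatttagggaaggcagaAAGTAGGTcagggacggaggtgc

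Several clock genes differed between the genotypes 4 wk after STZ. Cry1, itself an E-box gene, was counted among the core clock regulators and not among the outputs described below. Of 13 such regulators 4 rose, among them Npas2, Cry1 and Nfil3, and 1, Arntl, fell. Their median log2 was 0.19 against 0.007 over all genes tested. With pan-endocrine scaling 9 were higher and none lower. Over all genes, 19.9% rose and 7.89% fell (27.8% in either direction). Npas2, a paralogue of Clock that can pair with BMAL1, was at 2.98 and 4.16 CPM in control and 16.3 and 20.2 in knockout (log2 2.35, SE 0.21, adjusted p = 5.28e-05). Cry1, a repressor of CLOCK:BMAL1, was at 13.4 and 11.4 CPM in control and 37.8 and 35.7 in knockout (log2 1.57, SE 0.14, adjusted p = 6.35e-05). For both genes the knockout libraries lay above the control libraries. Clock itself (log2 -0.28), Rora (-0.37) and Rorb (-0.30) did not pass.

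Genes that CLOCK:BMAL1 drives through E-boxes, and D-box factors and outputs downstream, were more often higher than lower. Of 14 such genes 6 rose and 1 fell, with a median of 0.55; with pan-endocrine scaling 10 were higher and none lower. With only the 4 libraries at 4 wk in the fit, 3 were higher and none lower. Bhlhe40, which encodes the repressor DEC1, was at 14.3 and 14.5 CPM in control and 48.0 and 49.1 in knockout (log2 1.75, adjusted p = 3.77e-06). Usp2, a deubiquitinase gene with daily rhythm, was at 4.31 and 4.64 CPM in control and 15.1 and 27.5 in knockout (log2 2.25, SE 0.27, adjusted p = 0.00035). Among the PAR-domain factors, Hlf went from 10.5 and 8.93 to 27.9 and 23.7 CPM (log2 1.41, adjusted p = 9.95e-05). Tef went from 62.0 and 64.0 to 90.2 and 95.2 CPM (log2 0.56, adjusted p = 0.00127). Dbp was at 8.94 and 12.6 CPM in control and 15.0 and 24.1 in knockout (log2 0.86, adjusted p = 0.0374). Its groups did not overlap, but the call was lost without control A (0.63, adjusted p = 0.199) or knockout B (0.47, adjusted p = 0.187). Per2, a repressor of the loop, rose by a log2 of 0.54 (adjusted p = 0.0102), a call lost without control A (0.44, adjusted p = 0.0739). Bhlhe41, which encodes DEC2, fell (log2 -0.66), but stood at 0.14 (adjusted p = 0.744) with pan-endocrine scaling, and no output gene was lower without control A or without knockout B. The REV-ERB genes did not pass: Nr1d1 stood at 21.3 and 38.6 CPM in control and 23.7 and 49.2 in knockout, overlapping groups (log2 0.28, adjusted p = 0.652; 1.04 and adjusted p = 0.00688 with pan-endocrine scaling), and Nr1d2 at a log2 of -0.33 (adjusted p = 0.407).

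Promoters of Cry1 and Tef are shown because both hold a perfect E-box, CACGTG (capitals; its own reverse complement, so both strands are covered). Of 12 of the 14 output genes with a promoter in the RefSeq table, 4 held CACGTG in at least 1 promoter, namely Per1, Ciart, Tef and Bhlhe41, and of these Tef alone rose, while 3 of the other 8 rose. Of 10 of the 13 core regulators with a promoter there, 1, Cry1, held CACGTG. Over all 27025 genes of that table the share with it was 8.09%, and over single promoters 7.15%.
Cry1 (chr10:85185005-85185304, minus strand): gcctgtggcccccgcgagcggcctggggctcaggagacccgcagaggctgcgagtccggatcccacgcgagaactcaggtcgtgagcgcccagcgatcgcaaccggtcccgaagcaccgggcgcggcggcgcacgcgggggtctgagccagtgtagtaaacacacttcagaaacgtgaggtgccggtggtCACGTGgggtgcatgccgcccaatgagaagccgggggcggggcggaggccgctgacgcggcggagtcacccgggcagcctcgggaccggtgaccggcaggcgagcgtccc
Tef (chr15:81802423-81802722, plus strand): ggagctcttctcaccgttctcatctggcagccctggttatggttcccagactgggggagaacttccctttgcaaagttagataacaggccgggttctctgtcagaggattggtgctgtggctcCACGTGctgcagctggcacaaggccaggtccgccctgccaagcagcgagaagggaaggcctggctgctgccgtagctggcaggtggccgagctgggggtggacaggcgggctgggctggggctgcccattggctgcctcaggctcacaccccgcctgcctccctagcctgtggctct

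**Figure D1:**
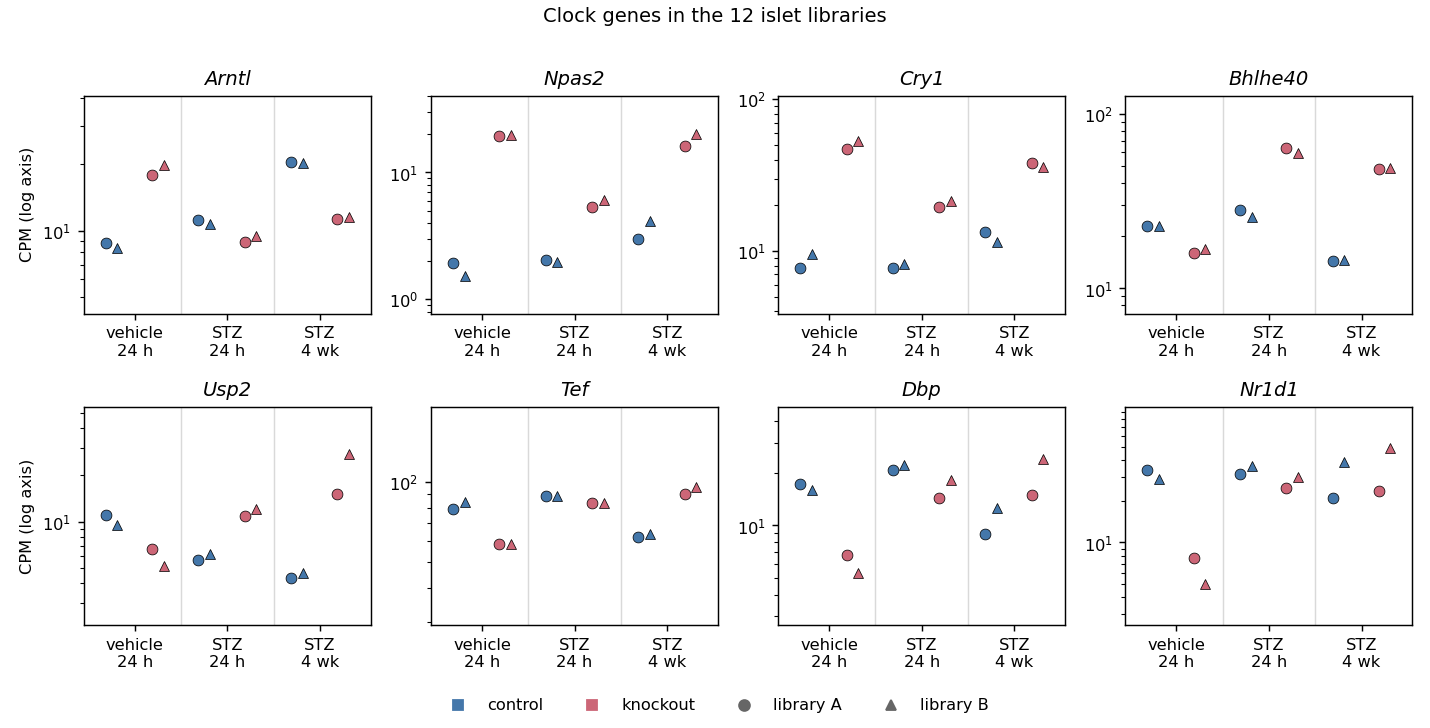
CPM (log axis) of 8 clock genes in all 12 libraries, by treatment and time; blue marks control, red knockout, circles library A and triangles library B. At 4 wk after STZ, Npas2, Cry1, Bhlhe40 and Usp2 lie above control in both knockout libraries, Arntl lies below, and Nr1d1 overlaps.

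In all, 4839 of the 17411 genes passed at 4 wk (27.8%), 3465 higher (19.9%) and 1374 lower (7.89%) in knockout. Large changes were mostly gains: 2587 genes were higher and 202 lower at an absolute log2 of at least 1, and 929 were higher and 14 lower at 3 or more. The count of lower genes fell to 740 without control A. Scaling bears on this balance. The 12 genes of the pan-endocrine list, such as chromogranins and islet transcription factors, took 0.941 and 1.25% of counts in control and 0.494 and 0.708% in knockout. When their summed counts set the library sizes (pan-endocrine scaling), the median of all genes moved from 0.007 to 0.787, and 7747 genes were higher and 48 lower. Values under this scaling are given below for part of the genes named. Several genes given below as not passing were higher with it, among them Ccl2 (1.23), Nfkb1 (0.95), C1qa (1.08), Mmp12 (1.64) and Tat (1.07), with adjusted p up to 0.0353. Under total-count scaling the split was 3194 higher and 2037 lower (median -0.08).

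**Figure D2:**
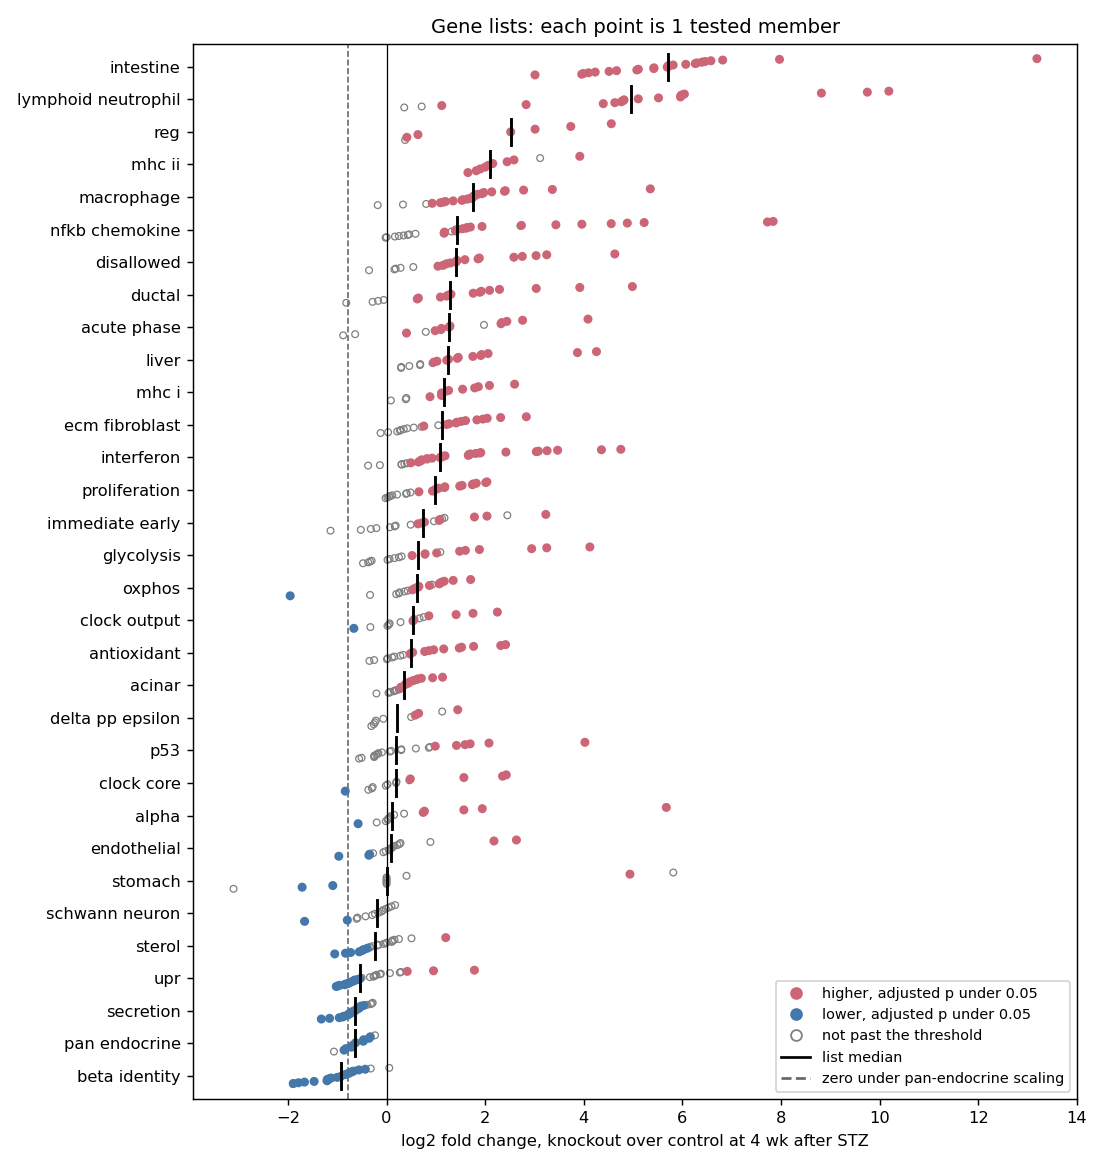
Log2 fold change, knockout over control at 4 wk after STZ, for each tested member of 32 gene lists, ordered by list median (black bar). Filled points passed an adjusted p of 0.05, open points did not, and the dashed line marks where zero falls under pan-endocrine scaling. That scaling turns the medians of the secretion, pan-endocrine, unfolded-protein, sterol and Schwann or neuronal lists from below to above zero. The pan-endocrine list itself sets the scaling, so its own move follows from the method.

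Transcripts that define beta cells were lower in knockout islets 4 wk after STZ. Of 25 beta-identity genes, 18 fell and none rose (median log2 -0.92); under pan-endocrine scaling 6 remained lower (median -0.15), namely Glp1r, Trpm5, Ucn3, Gipr, Pdx1 and Ffar1. With only the 4 libraries at 4 wk in the fit, 6 of the 25 were lower and none higher. In bulk islets, fewer cells of a type and less RNA per cell cannot be told apart. Glp1r, the receptor for the incretin GLP-1, was at 132 and 142 CPM in control and 38.4 and 41.0 in knockout (log2 -1.79, SE 0.10, adjusted p = 4.36e-06; -0.998 and adjusted p = 0.00423 with pan-endocrine scaling). Ucn3, a maturity marker of mouse beta cells, was at 373 and 451 CPM in control and 96.6 and 126 in knockout (log2 -1.89, SE 0.16, adjusted p = 4.05e-05; -1.12 with pan-endocrine scaling). Trpm5, a calcium-activated cation channel, went from 106 and 110 to 32.4 and 35.7 CPM (log2 -1.66, adjusted p = 4.66e-06). Gipr, the receptor for the other incretin, and the transcription factor Pdx1 fell by 1.21 and 1.20 on the log2 scale. For each of these genes both knockout libraries lay below both control libraries.

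Insulin transcripts varied more between A and B. Ins1 was at 26010 and 39520 CPM in control and 10370 and 18960 in knockout (log2 -1.16, SE 0.32, adjusted p = 0.0274), so its groups did not overlap. The call was lost without control B (-0.83, adjusted p = 0.146), without knockout A (-0.79, adjusted p = 0.0993) and with pan-endocrine scaling (-0.40, adjusted p = 0.12). Ins2 was at 48700 and 84730 CPM in control and 22210 and 48540 in knockout (log2 -0.92, SE 0.40), and did not pass (adjusted p = 0.135). Without knockout B it did (-1.59, adjusted p = 0.0213). Mafa, an activator of insulin transcription, stood at 2.55 and 9.29 CPM in control and 0.284 and 2.88 in knockout, and these overlapping groups did not differ past the threshold (log2 -1.90, adjusted p = 0.248; -4.38 and adjusted p = 0.0397 without knockout B). In both genotypes library B held more of Ins1, Ins2 and Mafa than library A. In an alternative fit that paired libraries by letter between genotypes (the replicate block, given below), Ins2 and Mafa passed as lower. Slc30a8, the zinc transporter of insulin granules, fell from 894 and 797 to 412 and 364 CPM (log2 -1.12, adjusted p = 9.46e-05), and the call was lost with pan-endocrine scaling (-0.33, adjusted p = 0.364). Slc2a2, the entry route of STZ, was at 746 and 638 CPM in control and 499 and 440 in knockout (log2 -0.56, adjusted p = 0.00822), but at 0.23 with pan-endocrine scaling and short of the threshold without control A (-0.44, adjusted p = 0.0576).

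**Figure D3:**
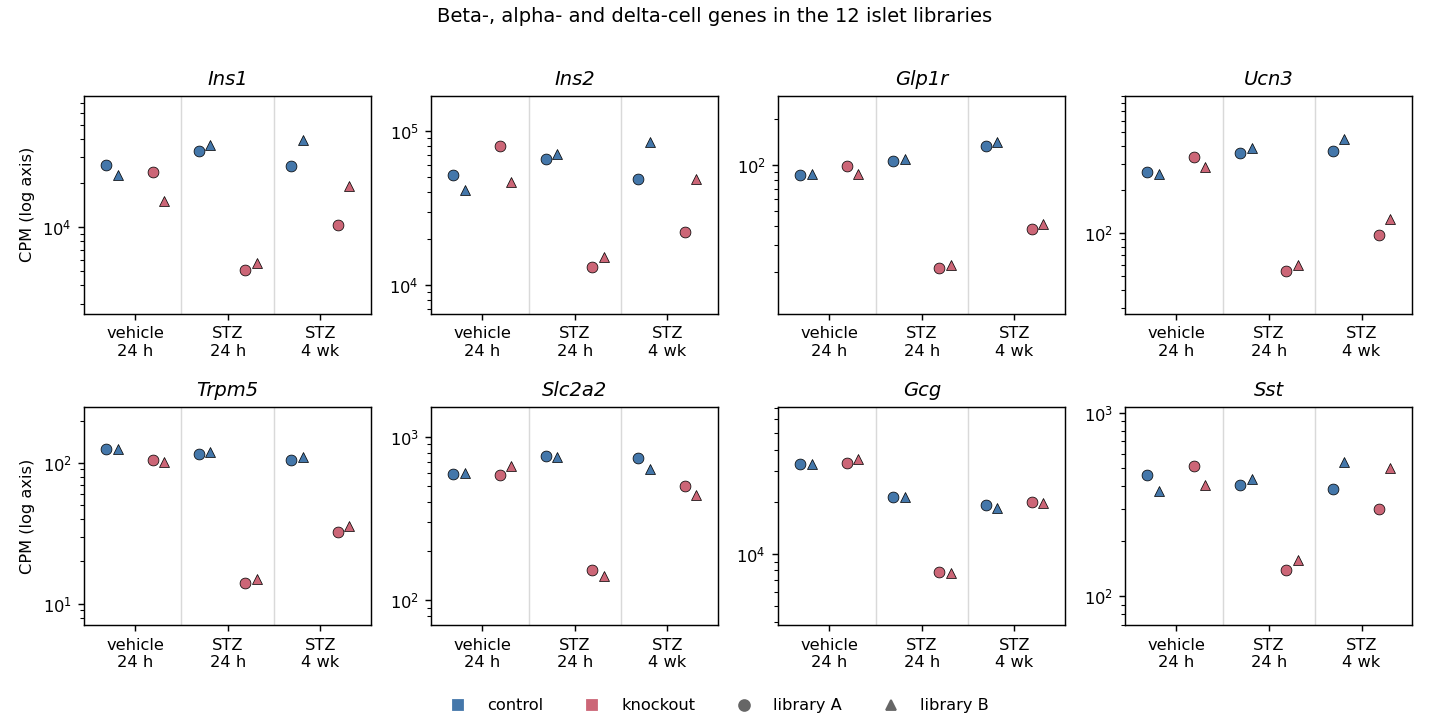
CPM (log axis) of 6 beta-cell genes, Gcg (alpha cells) and Sst (delta cells) in the 12 libraries, by treatment and time, coloured by genotype. At 4 wk both knockout libraries lie below both control libraries for Ins1, Glp1r, Ucn3, Trpm5 and Slc2a2 (Slc2a2 turns upward with pan-endocrine scaling), and the groups overlap for Sst.

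Genes that process and release hormone granules moved with them: 17 of 25 fell and none rose (median -0.64), but with pan-endocrine scaling none was lower and the median was 0.13. With only the 4 libraries at 4 wk in the fit, 3 were lower. Sytl4, which encodes a granule protein that binds RAB27A, went from 450 and 348 to 183 and 136 CPM (log2 -1.32, adjusted p = 0.000749). Syt13, a synaptotagmin, was at 810 and 871 CPM in control and 456 and 520 in knockout (log2 -0.78, adjusted p = 0.000418). Cadps, a priming factor of dense-core vesicles, fell by 0.87 and Cacna1c, an L-type calcium channel, by 0.69 on the log2 scale (0.11 for Cacna1c with pan-endocrine scaling). Of the 12 pan-endocrine genes themselves 9 fell, among them Pax6 and Isl1 (log2 -0.86 and -0.82). With pan-endocrine scaling Pax6 and Isl1 stood at -0.07 and -0.03 (adjusted p = 0.838 and 0.94). These 12 genes set that scaling, so their lack of change under it follows largely from the method and is no check.

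Of 29 genes of the unfolded-protein and integrated stress response 13 fell and 3 rose (median -0.53). Without control A 8 fell and 1 rose, without knockout B 1 rose, and with only the 4 libraries at 4 wk 3 fell and 1 rose, and with pan-endocrine scaling none was lower, 7 were higher and the median was 0.26. The disulphide isomerase gene Pdia6 was at 563 and 603 CPM in control and 268 and 308 in knockout (log2 -1.02, adjusted p = 9.32e-05). Sdf2l1, a co-chaperone, fell from 70.7 and 75.01 to 35.5 and 38.0 CPM (log2 -0.99, adjusted p = 7.68e-05), Creld2 by 0.95 and the lectin chaperone Calr by 0.76 on the log2 scale. The 3 members that rose were Herpud1, Trib3 and Atf3 (log2 0.42, 0.95 and 1.78). Ddit3, the death-linked factor CHOP, stood at 7.54 and 13.0 CPM in control and 5.05 and 12.2 in knockout and did not pass (adjusted p = 0.717).

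Genes normally kept low in mature beta cells, or raised when such cells dedifferentiate, were higher. Of 21 such genes 15 rose and none fell (median 1.41, 2.19 with pan-endocrine scaling). Aldh1a3, a retinaldehyde dehydrogenase used as a marker of dedifferentiated beta cells, was at 18.3 and 17.8 CPM in control and 62.8 and 70.0 in knockout (log2 1.88, SE 0.12, adjusted p = 7.12e-06). Ldha, the lactate dehydrogenase subunit that beta cells repress, went from 29.0 and 33.3 to 248 and 344 CPM (log2 3.25, SE 0.19, adjusted p = 6.02e-06). The PDGF receptor gene Pdgfra and the transcription factor Maf rose by a log2 of 3.03 and 4.63. Other cell types also express these genes. Neurog3, a marker of endocrine progenitors, did not pass (log2 -0.35). Intestinal, duct and matrix transcripts, given below, were higher in the same 2 libraries, and their part in these values was not tested.

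Other endocrine transcripts changed less. Gcg, the glucagon gene of alpha cells, was at 19250 and 18460 CPM in control and 20030 and 19720 in knockout (log2 0.08, adjusted p = 0.597; 0.86 and adjusted p = 0.0204 with pan-endocrine scaling). Of 14 alpha-cell genes 5 rose and 1 fell (median 0.12). Tmem236 and Dpp4, both of which the intestine also expresses, had the largest gains of the list (log2 5.67 and 1.94), and Gc rose by 0.77. Sst, the somatostatin gene of delta cells, was at 386 and 541 CPM in control and 299 and 498 in knockout (log2 -0.22, adjusted p = 0.601; 0.54 and adjusted p = 0.0352 with pan-endocrine scaling). Of 10 delta-, PP- and epsilon-cell genes 3 rose, namely Lepr, Rbp4 and Hhex (log2 1.44, 0.65 and 0.58). Hhex lost its call without control A, control B or knockout A (adjusted p = 0.054, 0.165 and 0.159).

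Macrophage transcripts were higher in knockout islets. Of 28 macrophage and phagocyte genes 25 rose and none fell (median 1.75), and their summed share was 0.0287 and 0.027% of counts in control and 0.0904 and 0.0903% in knockout. Lyz2, the lysozyme of myeloid cells, was at 26.5 and 22.4 CPM in control and 92.1 and 84.4 in knockout (log2 1.85, SE 0.11, adjusted p = 5.6e-06). Itgax, which encodes CD11c, went from 4.70 and 4.46 to 24.1 and 24.0 CPM (log2 2.39, adjusted p = 1.22e-05). Ctss, a cathepsin of antigen-presenting cells, went from 32.5 and 31.1 to 103 and 109 CPM (log2 1.74, adjusted p = 7.4e-06). Adgre1, which encodes the F4/80 antigen, rose by a log2 of 1.35 and Csf1r, the receptor for the macrophage growth factor CSF1, by 2.41. Lgals3, which encodes galectin-3, was at 2.56 and 3.18 CPM in control and 115 and 119 in knockout (log2 5.35, SE 0.18, adjusted p = 5.75e-07). Intestinal epithelium also makes galectin-3, and its part in this value was not tested. The 3 members that did not pass were Trem2, C1qa and Mmp12 (log2 -0.18, 0.33 and 0.80).

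Antigen presentation genes followed the same direction. Of 10 MHC class II genes 9 rose (median 2.11): H2-Aa, for example, was at 43.6 and 50.4 CPM in control and 160 and 190 in knockout (log2 1.90, adjusted p = 7.02e-06), and H2-Ab1 and H2-Eb1 rose by 2.15 and 1.65. Of 14 MHC class I and immunoproteasome genes 10 rose and none fell (median 1.16). B2m, the light chain of class I molecules, was at 131 and 115 CPM in control and 818 and 670 in knockout (log2 2.60, SE 0.15, adjusted p = 5.1e-06). The proteasome activator genes Psme1 and Psme2 both rose by 1.11.

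Of 36 interferon-stimulated genes 27 rose and none fell (median 1.09). With only the 4 libraries at 4 wk in the fit, 14 were higher. Ifit1, a sensor of foreign RNA ends, was at 4.90 and 4.06 CPM in control and 18.7 and 15.0 in knockout (log2 1.91, SE 0.18, adjusted p = 6.48e-05). Gbp3, a guanylate-binding protein gene, went from 4.07 and 4.03 to 15.4 and 12.9 CPM (log2 1.81, adjusted p = 2.7e-05), and Oasl2 from 7.53 and 6.71 to 28.6 and 24.3 CPM (log2 1.89, adjusted p = 2.72e-05). For these 3 genes the groups did not overlap. Cxcl9, a chemokine induced by interferon gamma, was at 0.246 and 0.393 CPM in control and 9.47 and 7.87 in knockout (log2 4.75, SE 0.30). Cxcl10, its relative, was at 0.205 and 0.277 CPM in control and 2.11 and 1.88 in knockout (log2 3.04, adjusted p = 0.0231), a call lost without control A (log2 2.84, adjusted p = 0.115) or control B (log2 3.27, adjusted p = 0.0812) at a similar fold.

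Promoters of Ifit1, Gbp3 and B2m are shown because these genes rose together and hold the string GAAA, any 2 bases, GAAA (capitals, both strands), the core of the element that interferon-activated STAT and IRF factors are known to bind. Of 28 interferon-list genes with a RefSeq promoter 16 held this string, against 3.99% of all 27025 genes and 3.44% of single promoters. Of those 16 genes 13 rose, and of the 12 without it 10 rose.
Ifit1 (chr19:34640639-34640938, plus strand): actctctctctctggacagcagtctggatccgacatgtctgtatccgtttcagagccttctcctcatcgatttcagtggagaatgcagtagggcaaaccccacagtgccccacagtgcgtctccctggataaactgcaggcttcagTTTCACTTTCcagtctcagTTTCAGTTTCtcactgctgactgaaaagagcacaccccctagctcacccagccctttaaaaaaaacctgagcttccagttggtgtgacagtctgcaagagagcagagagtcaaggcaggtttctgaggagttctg
Gbp3 (chr3:142559794-142560093, plus strand): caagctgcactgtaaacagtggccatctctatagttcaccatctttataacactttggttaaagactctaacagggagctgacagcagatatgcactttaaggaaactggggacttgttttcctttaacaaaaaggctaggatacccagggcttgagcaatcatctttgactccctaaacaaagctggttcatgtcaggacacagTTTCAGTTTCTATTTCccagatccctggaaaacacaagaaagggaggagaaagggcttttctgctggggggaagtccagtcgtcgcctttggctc
B2m (chr2:122147437-122147736, plus strand): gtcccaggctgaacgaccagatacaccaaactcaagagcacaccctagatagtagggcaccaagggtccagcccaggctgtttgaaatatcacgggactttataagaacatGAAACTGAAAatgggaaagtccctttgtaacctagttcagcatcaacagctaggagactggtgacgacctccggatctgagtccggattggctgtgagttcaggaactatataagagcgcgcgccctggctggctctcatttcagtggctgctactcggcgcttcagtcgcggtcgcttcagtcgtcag

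Of 30 NF-kB targets, chemokines and cytokines 18 rose and none fell (median 1.44). Cxcl16 went from 5.69 and 6.87 to 17.6 and 20.9 CPM (log2 1.61, adjusted p = 0.00012). Cxcl12 rose by a log2 of 1.41, Ccl6 by 3.43 and Il1rn, the natural antagonist of interleukin 1, by 3.96. Ccl2, which recruits monocytes, was at 0.246 and 0.299 CPM in control and 0.376 and 0.359 in knockout and did not pass (log2 0.43, adjusted p = 0.507). Nfkb1, Nfkbia and Rel did not pass either (log2 0.17, 0.25 and -0.02). Of 15 acute-phase and complement genes 11 rose, among them Cfb, which went from 18.9 and 21.1 to 86.7 and 115 CPM (log2 2.34, adjusted p = 1.23e-05), and Serpina3n (log2 2.44); Saa1 and Saa2 stood at -0.64 and -0.88 and did not pass.

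T-, B- and NK-cell transcripts were higher in knockout libraries, mostly at low levels. Of 18 tested genes of 20 in the lymphoid and neutrophil list 16 rose (median 4.96), and the list took 0.0015 and 0.00131% of counts in control and 0.0177 and 0.0132% in knockout. Ptprc, the pan-leukocyte antigen CD45, was at 8.55 and 6.52 CPM in control and 70.8 and 36.4 in knockout (log2 2.83, SE 0.32, adjusted p = 0.000218). Both knockout libraries lay above both control libraries. The T-cell gene Cd3e rose by a log2 of 5.98, at a mean of 1.28 CPM over the 4 libraries. The B-cell genes Ms4a1 and Cd79a rose by 4.39 and 1.12, at means of 0.739 and 4.84 CPM. The granzyme gene Gzma stood higher, at a mean of 19.2 CPM (log2 5.51). Intestinal transcripts, given below, were higher in the same 2 libraries, and their part in these values was not tested. The neutrophil genes S100a8 and S100a9 did not pass (log2 0.71 and 0.36).

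Stress and growth genes were higher in part of their lists. Of 22 p53 target genes 6 rose (27.3%, near the 19.9% of all genes tested) and none fell (median 0.20). Cdkn1a, which encodes the cell cycle inhibitor p21, was at 25.3 and 27.4 CPM in control and 76.4 and 82.6 in knockout (log2 1.59, SE 0.10, adjusted p = 6.97e-06). Pmaip1, the death gene NOXA, went from 1.32 and 1.11 to 23.3 and 16.3 CPM (log2 4.02), while Bax, Bbc3 and Ccng1 did not pass (log2 -0.18, -0.10 and -0.17). Of 24 DNA replication and mitosis genes 14 rose (median 0.97). The 14 included the mitotic genes Ccnb1 and Bub1b (log2 2.01 and 1.48), whereas no Mcm gene of the list passed (0.05 to 0.41). Mki67, the proliferation marker, was at 11.5 and 8.36 CPM in control and 22.7 and 15.2 in knockout (log2 0.93, adjusted p = 0.0159), a call lost without control B (0.72, adjusted p = 0.095) or knockout A (0.61, adjusted p = 0.0752).

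Of 20 antioxidant genes 11 rose and none fell in these bulk libraries (median 0.51). Values in beta cells alone were not measured. Intestinal and liver transcripts, given below, were higher in the same 2 libraries, and their part in these values was not tested. Cat, the catalase gene, was at 54.0 and 52.9 CPM in control and 294 and 276 in knockout (log2 2.41, SE 0.10, adjusted p = 1.15e-06). Txn1, thioredoxin, went from 40.6 and 40.2 to 204 and 198 CPM (log2 2.31, adjusted p = 1.03e-06). Nfe2l2, which encodes the master regulator NRF2, went from 44.6 and 39.7 to 132 and 110 CPM (log2 1.52), and its target Nqo1 rose by 1.76. Hmox1 did not pass (log2 -0.35). Txnip, the thioredoxin inhibitor, was at 373 and 384 CPM in control and 612 and 676 in knockout (log2 0.77, adjusted p = 0.000366). The share of the antioxidant list was 0.133 and 0.129% of counts in control and 0.247 and 0.228% in knockout.

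Genes of energy metabolism were partly higher. Of 20 glycolysis and hypoxia genes 9 rose and none fell (median 0.65), with Egln3, a hypoxia-induced prolyl hydroxylase gene, at 1.10 and 1.17 CPM in control and 20.9 and 18.8 in knockout (log2 4.12, adjusted p = 6.79e-06). Pfkp, a phosphofructokinase gene, rose by 1.88. Of 20 nuclear genes of the respiratory chain 12 rose and 1 fell (median 0.61). Atp5b, the catalytic ATP synthase subunit, went from 488 and 477 to 885 and 880 CPM (log2 0.87, adjusted p = 9.1e-05). The member that fell was Cox6a2, a tissue-restricted cytochrome oxidase subunit (log2 -1.95). Of 24 sterol and fatty acid synthesis genes 7 fell and 1 rose (median -0.23), but with pan-endocrine scaling none was lower and the median was 0.55. Scd2, a desaturase gene, fell by 0.83 and Acly, the citrate lyase gene, by 1.05 on the log2 scale.

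Transcripts of the intestinal epithelium made up the largest gains. All 24 genes of the intestine list rose (median 5.70), and the list took 0.0724 and 0.0699% of counts in control and 1.95 and 1.93% in knockout. Slc5a1, the apical glucose transporter SGLT1, was at 23.7 and 21.6 CPM in control and 1560 and 1477 in knockout (log2 6.07, SE 0.14, adjusted p = 2.27e-07). Clca1, a goblet-cell product, was at 9.59 and 8.66 CPM in control and 320 and 308 in knockout (log2 5.11, adjusted p = 3.71e-07). The intestinal transcription factor gene Cdx2 was at 0.246 and 0.277 CPM in control and 13.4 and 16.1 in knockout (log2 5.81). The aminopeptidase Anpep and the lectin Lgals4 rose by 4.09 and 4.51, although 61.9% of the Lgals4 exon bases overlap another gene.

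The 12 largest gains among genes with a mean of at least 5 CPM were mostly genes known from the intestine. Paneth-cell defensins Defa17, Defa23 and Defa3 and the intestinal genes Enpp7, Itln1 and Clca3b had 0 counts in both control libraries. In knockout they reached group means of 21.0, 39.1, 19.0, 31.5, 27.9 and 11.4 CPM, at least 1810-, 3359-, 1643-, 2755-, 2419- and 988-fold higher in that order (control set to 3 counts over the group). Defa24 had 1 count in control and 10854 in knockout, a ratio of 11900. Its 95% exact counting interval, which takes each estimated count as an independent read, was 2130 to 469000. Ido1, a tryptophan-degrading enzyme gene induced by interferon, had 3 against 2856 counts, a ratio of 1040 (356 to 5050). The defensin genes are near-identical copies, and all exon bases of Defa23 and Defa6 overlap another gene, so single defensin values are uncertain. Slc5a12, a lactate transporter gene, and the calcium-activated chloride channel regulator Clca4a went from below 0.05 CPM in each control library to 189 and 127 and to 231 and 164 CPM in knockout. The other gains were Defa6 and Dnase1 (log2 10.75 and 8.997).

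Transcripts of neighbouring tissues were measured in the same libraries. Of 18 liver genes 12 rose (median 1.24), with shares of 0.23 and 0.208% of counts in control and 0.704 and 0.71% in knockout; Alb, the albumin gene, went from 906 and 743 to 3030 and 2515 CPM (log2 1.75), while Tat did not pass (0.29). Apoa1, which intestine and liver both make, rose by 4.26. Of 18 duct genes 14 rose (median 1.28), among them Cftr, at 1.65 and 1.16 CPM in control and 51.4 and 37.4 in knockout (log2 4.98), and Epcam, at 72.9 and 75.03 against 241 and 259 (log2 1.76). The duct keratin gene Krt7 did not pass (-0.82). Of 30 acinar genes 11 rose and none fell, with a median of 0.36; Zg16 rose by 0.64 and Pnliprp1 by 0.61. Of 7 regenerating-family genes 6 rose, with Reg3g at 7.52 and 6.53 CPM in control and 104 and 83.5 in knockout (log2 3.73, adjusted p = 6.85e-07). Of 22 matrix and fibroblast genes 12 rose (median 1.13), with Mmp2, a gelatinase gene, and Fn1, fibronectin, at 2.83 and 2.04. Whether the gains of genes that gut, liver or duct share with islets came from islet cells was not tested.

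**Figure D4:**
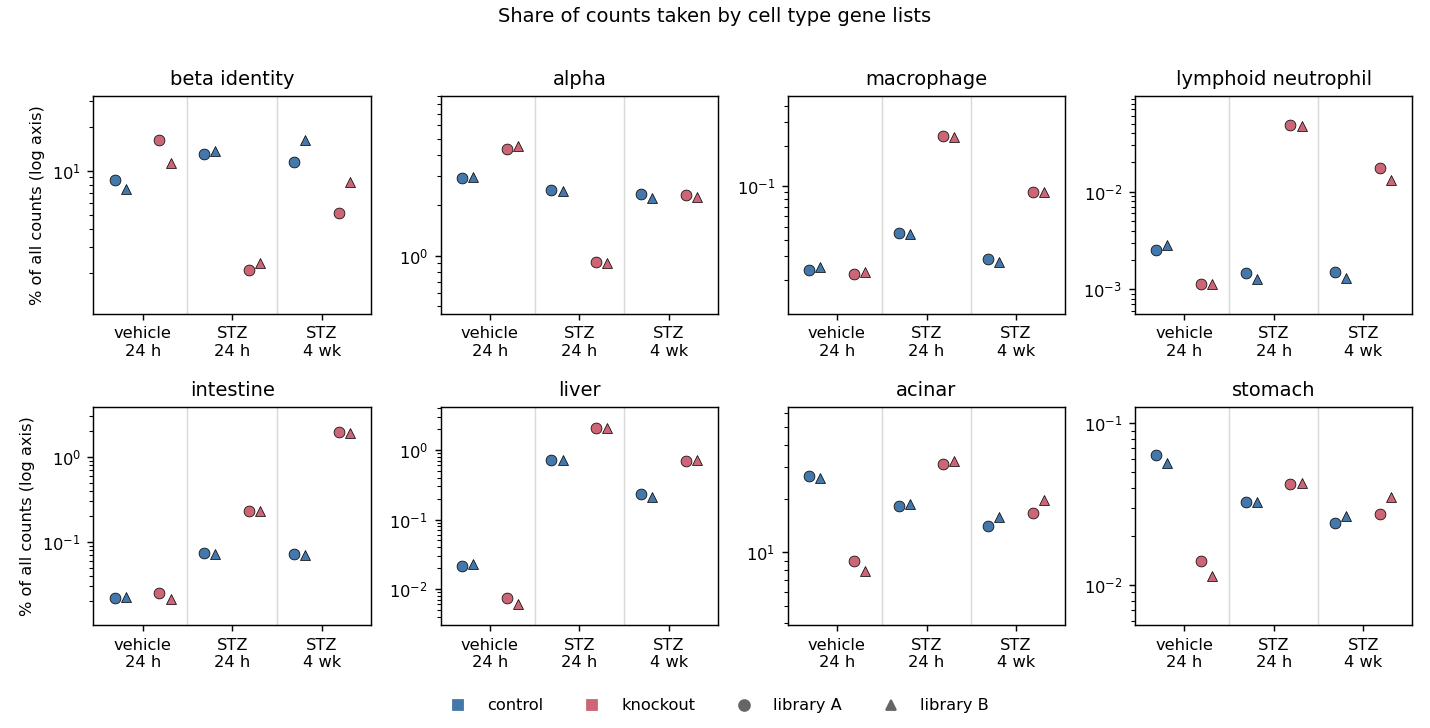
Share of all counts (%, log axis) taken by 8 cell type gene lists in each of the 12 libraries, by treatment and time, coloured by genotype. At 4 wk the intestine list stands at 1.95 and 1.93% in knockout against 0.0724 and 0.0699% in control, macrophage, lymphoid and liver lists are also higher, the alpha-cell list is alike in both, and the beta-identity list is lower (5.16 and 8.38% against 11.5 and 16.3%).

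Among the 12 largest losses, besides Glp1r and Ucn3, Pdyn, the prodynorphin gene, was at 142 and 144 CPM in control and 40.6 and 43.6 in knockout (log2 -1.77, SE 0.09, adjusted p = 2.96e-06). Tmem215 went from 202 and 201 to 59.0 and 56.6 CPM (log2 -1.80), and Car10, a carbonic anhydrase-related gene, from 85.6 and 76.8 to 23.02 and 19.4 CPM (log2 -1.94). These 3 kept adjusted p of 0.0152 or less with pan-endocrine scaling. Cyp4f39, Cox6a2 and the potassium channel gene Kcnj12 fell by 1.96, 1.95 and 1.81 on the log2 scale. Aak1, an adaptor kinase gene, and Pde10a, a phosphodiesterase gene, lost their calls when a library was left out. Aak1 stood at 133 CPM in control A and at 26.4, 20.4 and 18.7 in the others (log2 -2.03, adjusted p = 0.0275; -0.43 and adjusted p = 0.0537 without control A). Its calls were also lost without knockout A (adjusted p = 0.0774) or knockout B (adjusted p = 0.0926). Pde10a stood at 48.3 and 45.8 CPM in control and 4.73 and 22.6 in knockout (log2 -1.78, adjusted p = 0.0396), lost without control A (-1.74, adjusted p = 0.11) or control B (-1.82, adjusted p = 0.0888), with a similar fold. Mup15 shares 70.9% of its exon bases with another gene and is uncertain (log2 -1.94; adjusted p = 0.131 without control A and 0.0512 without knockout B). Atp6v0c, a subunit of the vacuolar proton pump, had the largest loss (log2 -6.53), but 97% of its exon bases overlap other gene models, and the pseudogene Atp6v0c-ps2 rose (log2 8.0) at 0.304 and 0.0728 CPM in control and 34.1 and 61.3 in knockout. The split of reads between this pair is therefore uncertain.

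The genotype differences at 4 wk were set beside those at 24 h after STZ, where 7491 genes passed (43%, 23.7% higher and 19.4% lower) in separate libraries. Of the 3465 genes higher at 4 wk 2514 were also higher at 24 h, which is 72.6% of the former and 61% of the 4119 at 24 h. Of the 1374 lower at 4 wk 1087 were also lower at 24 h, 79.1% of the former and 32.2% of the 3372 at 24 h. Opposite calls were 90 and 38 genes. The difference itself changed between the times in 2418 genes (13.9%), 1531 toward higher and 887 toward lower values at 4 wk (8.79 and 5.09%, median over all genes 0.09). This balance depended on scaling: 205 changed toward higher and 5091 toward lower values with pan-endocrine scaling (median -0.93), 2144 and 678 with total-count scaling, and 1203 and 1076 with DESeq2 size factors. The split at 24 h itself was 14354 higher and 76 lower with pan-endocrine and 3318 and 5183 with total-count scaling. Beta-identity genes lay lower at 24 h (median -1.99, 23 of 25 fell), and for 10 of 25 the difference at 4 wk was significantly less negative, none the reverse. The pan-endocrine genes shifted alike (median change 1.03). Slc2a2 is an example, at -2.36 at 24 h and -0.56 at 4 wk, a change of 1.80 (SE 0.17, adjusted p = 0.000439; 0.775 and adjusted p = 0.197 with pan-endocrine scaling). Gcg went from -1.46 to 0.08 (change 1.53, adjusted p = 0.000232; 0.509 and adjusted p = 0.272 with pan-endocrine scaling). For Glp1r and Ucn3 the smaller changes of 0.52 and 0.82 turned to -0.51 and -0.22 with pan-endocrine scaling.

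Macrophage and class II transcripts went the other way: the difference was smaller at 4 wk in 11 of 28 macrophage genes and larger in 1, Lgals3. Lyz2 was at 3.44 at 24 h and 1.85 at 4 wk (change -1.60, adjusted p = 0.000439). Cdkn1a was at 2.76 and 1.59 (change -1.17, adjusted p = 0.0011), and Ccl2 at 3.02 and 0.43 (change -2.59, adjusted p = 0.0185). Among interferon genes 10 of 36 had a smaller and 1 a larger difference at 4 wk. Intestinal genes were mixed, with 10 of 24 larger and 5 smaller at 4 wk; the share of the list in knockout had been 0.232 and 0.229% at 24 h. Scin, an actin-severing protein gene, was at 0.49 at 24 h and 5.02 at 4 wk (adjusted p of the change 1.52e-05), and Itln1 and Slc13a2, a citrate transporter gene of brush borders, were also among the 5 largest increases. Adh6a, a gene of the alcohol dehydrogenase family, had 0 counts in both control libraries at 24 h, and at 4 wk it was at 12.9 and 11.8 CPM in control and 307 and 265 in knockout (log2 4.53). Clock outputs shifted upward: for 5 of 14 the difference was more positive at 4 wk, with Hlf at 0.44 and 1.41 and Tef at -0.09 and 0.56 (changes 0.96 and 0.65; -0.05 and -0.38 with pan-endocrine scaling).

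**Figure D5:**
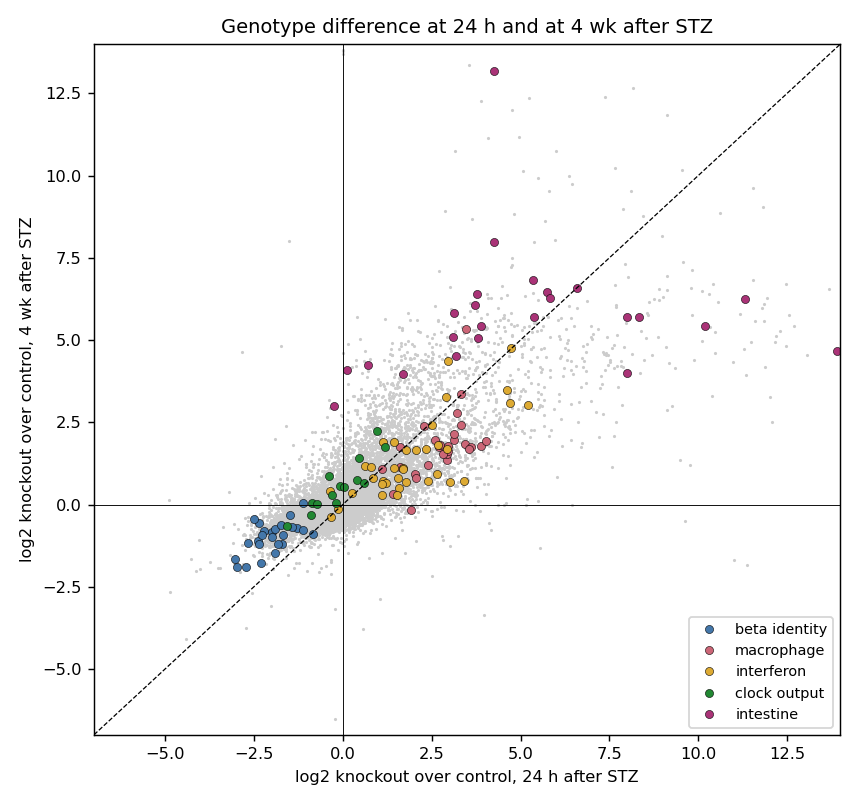
Log2 genotype difference at 4 wk (vertical axis) against that at 24 h after STZ (horizontal axis) for 14322 genes with a mean of at least 1 CPM (grey, 17 outside the axes) and the members of 5 lists; the dashed line marks equal differences. Beta-identity genes lie above the line at lower left, most macrophage genes below it at upper right, and intestinal genes on both sides; pan-endocrine scaling would move every point up and further to the right.

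Under vehicle, at 24 h, 1679 genes differed between genotypes (9.64%, 1.96% higher and 7.68% lower). With total-count scaling 6221 were higher and 984 lower there, the opposite balance, and with pan-endocrine scaling 65 and 1406. The overlaps that follow were counted with TMM scaling alone. Of the 1337 genes lower there 926 (69.3%) were higher at 4 wk, which is 26.7% of the 3465, and of the 342 higher there 127 (37.1%) were lower at 4 wk, 9.24% of the 1374. Only 40 genes were higher and 17 lower in all 3 conditions, and 963 of the genes called at 4 wk were called in neither of the others. The genotype difference at 4 wk after STZ differed from that under vehicle in 4538 genes (26.1%, 18.7% toward higher and 7.35% toward lower values), but 2371 toward higher and 5832 toward lower values with total-count scaling, and 6998 and 36 with pan-endocrine scaling. This comparison mixes treatment and time. Acinar genes were lower in 28 of 30 members under vehicle (median -2.14), the reverse of 4 wk. Npas2 and Cry1 were higher in knockout in all 3 conditions, with log2 of 3.495 and 2.54 under vehicle and 1.51 and 1.36 at 24 h after STZ. Arntl counts reversed with TMM scaling, from 1.14 under vehicle to -0.84 at 4 wk (change -1.97, SE 0.16, adjusted p = 2.71e-05), while its exon 8 stayed relatively low in knockout. With pan-endocrine scaling the Arntl log2 at 4 wk was -0.05 (adjusted p = 0.86) and the change -0.93. The clock outputs Dbp and Nr1d1 were lower in knockout under vehicle (log2 -1.45 and -2.31) and not at 4 wk (0.86 and 0.28), changes of 2.31 (adjusted p = 0.00171) and 2.59 (adjusted p = 0.00782). Clock transcripts cycle daily, and the part of the time of day of collection in these values was not tested. Glp1r and Ucn3 did not differ past the threshold under vehicle (0.10 and 0.26), and their changes were -1.89 and -2.15 (adjusted p up to 0.000127). Ppp1r3c, a glycogen-targeting phosphatase subunit gene, was higher at 4 wk (11.2 and 9.95 against 59.9 and 46.7 CPM, log2 2.33) and more so under vehicle (3.54).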

How the data were processed

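Islet RNA was made into stranded mRNA libraries and read in pairs on a HiSeq 4000, per the labels' protocols. The authors deposited estimated counts (expected counts) per gene, not scaled for depth, and transcript files made with StringTie 1.3.6 against a RefSeq annotation of mm10, per the file headers. No source used here names the aligner. The counts equal coverage times length over 75, rounded up, while the labels give longer reads, so they are a fixed multiple of reads and include both mates; exon depths are the deposited coverage per base.

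Counts of all 12 libraries entered 1 fit of 6 group means in edgeR 4.0.16 (R 4.3.3): TMM scaling (factors 0.825 to 1.213), filterByExpr, and the robust quasi-likelihood F test, two-sided, on 6 residual degrees of freedom. Benjamini-Hochberg adjustment ran over 17411 genes in each comparison, with a threshold of 0.05. CPM use TMM-scaled library sizes, and SE is the log2 change over the root of F. The fit was tested on simulated data. Alternatives were DESeq2 1.42.0 (size factors, Wald test), total-count and pan-endocrine scaling, no filter, the 4 libraries alone, a GC offset, a replicate block, and leaving out each library. Genes sharing exon bases on 1 strand were marked from the deposited models. Named genes are Arntl, Esr1, the 12 largest gains and losses at 4 wk with a mean of at least 5 CPM, in each list the 4 with the smallest adjusted p, 30 fixed genes and the 5 largest interactions of each sign; other list members were named after their values were seen, and some genes the rule names are not reported here. Members and lists were chosen with earlier results of these data known. Floors are 3 counts, and counting intervals cover counting error only. Both take each estimated count as 1 independent read, although counts are a multiple of reads and include both mates. The intervals are therefore too narrow.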

Additional observations from a re-analysis of the deposited data

Results flagged for a closer look

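Among the 30 fixed genes of the naming rule, those below had a genotype difference (log2 knockout over control) at 4 wk after STZ that differed from another condition, by edgeR's interaction test. None was weighed further. Against 24 h after STZ, the difference was more positive by 0.56 for Bhlhe40, 2.46 for Esr1, 1.53 for Gcg, 0.52 for Glp1r, 0.96 for Hlf, 1.89 for Lgals3, 1.26 for Ppp1r3c, 1.80 for Slc2a2, 1.29 for Sst, 0.65 for Tef, 0.65 for Txnip and 0.82 for Ucn3. It changed by -0.57 for Arntl, -2.59 for Ccl2, -1.17 for Cdkn1a and -1.60 for Lyz2. The largest adjusted p of these was 0.0497, for Sst. Bhlhe40, Glp1r, Hlf, Tef, Txnip and Ucn3 changed sign with pan-endocrine scaling, and 5 others lost their call. Of these 16 calls, 8 to 10 were lost when 1 library at 24 h after STZ was left out, 1 to 5 when 1 at 4 wk was, and 4 with DESeq2 size factors (Bhlhe40, Glp1r, Sst and Ucn3).

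Against vehicle at 24 h, a comparison that mixes treatment and time, the change was positive for Aldh1a3 (0.71), Bhlhe40 (2.24), Ccl2 (1.90), Cdkn1a (1.69), Dbp (2.31), Hlf (1.27), Lgals3 (6.58), Lyz2 (2.77), Mki67 (2.34), Nr1d1 (2.59), Nr1d2 (1.95), Tef (1.03), Txnip (1.46) and Usp2 (3.05). It was negative for Arntl (-1.97), Cry1 (-0.97), Esr1 (-1.35), Glp1r (-1.89), Npas2 (-1.14), Per2 (-0.55), Ppp1r3c (-1.21), Slc2a2 (-0.62) and Ucn3 (-2.15). The largest adjusted p was 0.0423, for Per2. Cry1, Per2 and Slc2a2 changed sign with pan-endocrine scaling, and Esr1, Npas2 and Ppp1r3c lost their call. Of these 23 calls, 1 to 4 were lost when 1 library was left out.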

How the results depend on the processing

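With 2 libraries a group, counts of calls moved with the scaling and the model. Genes called at 4 wk numbered 7795 with pan-endocrine scaling, 2148 with only the 4 libraries, 8184 with a replicate block, 7911 with a GC offset and 9295 with the block and GC offset. Of these, higher genes numbered 7747 with pan-endocrine scaling and 1997 in the 4 libraries. Lower genes numbered 48, 151, 3593 (block), 3203 (GC offset) and 4185 (both), and 740 to 1535 with a library left out. The interaction with 24 h gave 5296 genes with pan-endocrine scaling, 5666 with the block, 5575 with the GC offset, 7092 with both and 1187 to 2666 with a library left out. The interaction with vehicle gave 8203 with total-count scaling, 7034 with pan-endocrine scaling, 7677 with the block, 7388 with the GC offset and 8759 with both. At 24 h 14430 genes passed with pan-endocrine scaling and 11261 with block and GC offset. Under vehicle 7205 passed with total-count scaling, 3534 with the block, 3515 with the GC offset, 4883 with both and 1064 to 1217 with a library left out. The A-to-B spread was unequal between groups. Its chi-square over degrees of freedom was 318 in control and 462 in knockout at 4 wk after STZ. It was 24.5 and 39.8 at 24 h after STZ, and 44.2 and 266 under vehicle. The main fit pools this spread over all 12 libraries, so its p-values at 4 wk also draw on the other groups. The part of this pooling in the lower count with only the 4 libraries was not tested. Nor were the causes of the other shifts.

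Letters A and B were paired between genotypes in the block as an alternative only. The A-to-B gap of genes correlated between genotypes with r = 0.48 at 4 wk, against 0.12 for vehicle and 0.05 for 24 h. At 4 wk the gap was thus partly shared by the genotypes. No label used here ties the letters, and the main fit did not pair them. With the replicate block Ins2 and Mafa passed (log2 -0.97 and -2.29, adjusted p = 0.000342 and 0.00408), 24 beta-identity genes were lower, and Pde10a and Aak1 lost their call. That gap also went with GC content across genes at 4 wk (r = 0.5 in control and 0.6 in knockout). Under vehicle r was -0.16 in control and -0.45 in knockout, and at 24 h after STZ it was 0.11 and 0.21. Genes are not independent replicates.

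With pan-endocrine scaling these log2 values at 4 wk changed sign: Acaca 0.068, Cacna1c 0.11, Calr 0.024, Chgb 0.15, Dusp4 0.30, Flt1 0.43, Kdr 0.44, Meg3 0.093, Slc2a2 0.23, Sqle 0.30, Sst 0.54 and Bhlhe41 0.14. So did the changes from 24 h for Bhlhe40 (-0.46), Glp1r (-0.51), Hlf (-0.053), Tef (-0.38), Txnip (-0.38) and Ucn3 (-0.22), and those from vehicle for Cry1 (0.07), Per2 (0.50) and Slc2a2 (0.42). Of the 179 genes chosen by the naming rule, 20 more lost their call with this scaling. With only the 4 libraries at 4 wk no sign changed but 39 lost their call, among them Arntl, Ins1, Slc2a2, Dbp, Per2, Tef, Txnip, Fos, Mki67, Syt13, Isl1 and Calr. There 6 beta-identity and 3 secretion genes were lower, 14 interferon and 21 macrophage genes higher, and 3 core clock and 3 clock output genes higher.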

Other observations

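Of 17 endothelial genes 2 rose and 3 fell at 4 wk (median log2 0.09), but with pan-endocrine scaling 12 were higher and none lower (median 0.88). Pecam1 and Cdh5 did not pass (0.15 and 0.26; 0.92 and 1.03 with pan-endocrine scaling, adjusted p = 0.00859 and 0.00204). Lyve1, a hyaluronan receptor gene of lymphatic vessels and of some macrophages, was at 15.5 and 13.9 CPM in control and 7.04 and 8.01 in knockout (log2 -0.97, adjusted p = 0.000397; -0.21 and adjusted p = 0.504 with pan-endocrine scaling), and at 24 h it had been higher in knockout (3.23). Vwf, von Willebrand factor, was at 3.24 and 4.80 CPM in control and 12.8 and 23.6 in knockout (log2 2.18, adjusted p = 0.000681). Kdr and Flt1, receptors for vascular endothelial growth factor, fell by 0.34 and 0.36 on the log2 scale, and both turned positive with pan-endocrine scaling. Kdr lost its call without control A or control B (adjusted p = 0.0732 and 0.055), and Flt1 without control A (adjusted p = 0.0589).

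Of 14 Schwann-cell and neuronal genes 2 fell, Cntnap2 (log2 -1.66) and Elavl4 (-0.80; lost without control A or knockout B, adjusted p = 0.0781 and 0.0574), and the glial gene Sox10 did not pass (0.10). Of 20 immediate early genes 8 rose and none fell (median 0.74). Klf4 was at 7.97 and 7.59 CPM in control and 75.3 and 70.7 in knockout (log2 3.23, adjusted p = 1.04e-06), and Fos at 28.6 and 32.2 against 43.9 and 50.7 (log2 0.64, adjusted p = 0.00229). Of 11 tested stomach genes 1 rose, the protease gene Ctse (log2 4.93), and Atp4a and Gkn3 fell (-1.09 and -1.71). Gkn3 lost its call without control A or knockout B (adjusted p = 0.0519 and 0.055), and neither passed with pan-endocrine scaling (adjusted p = 0.269 and 0.157).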
